A study of Mus musculus with 2 samples.

Results

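The inhibitors of DNA binding Id1, Id2, Id3 and Id4, the inhibitory SMAD genes Smad6 and Smad7 and the ligand gene Bmp4 were examined in thymic epithelial cells (TECs) of irradiated and control mice. These are 7 of the 32285 genes listed in the files. They were taken by symbol and chosen by the Id1 UMI levels of these same data, in which Id1 had been higher in most clusters of irradiated cells. The Id1 difference between the libraries is therefore a description of what chose the genes, and no test was made of it.

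TECs were sorted as EPCAM+ CD45- TER119- cells from thymi of C57BL/6 mice, 15 days after a sublethal dose of total body irradiation or without irradiation, and measured by droplet single-cell RNA sequencing. Each of the 2 libraries was a pool of several mice, with 1 library per condition. The age is given as 9 weeks in the sample characteristics and as 4 weeks in the protocol. The deposited labels and the file names disagree on which library was irradiated, and the library labelled radiation held 4937 barcodes, fewer than the number of irradiated cells given by the study. The conditions are named here by the file names and the study's cell numbers, and every direction would reverse under the deposited labels. With 1 library per condition there is no replicate check, so differences are given with counting intervals and without p-values. These intervals are exact Poisson 95% intervals of summed unique molecular identifiers (UMIs, each marking 1 captured RNA molecule), and they cover counting error only.

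Bone morphogenetic proteins (BMPs) bind receptor kinases that phosphorylate SMAD1, SMAD5 and SMAD9, and these enter the nucleus with SMAD4 and induce the Id genes. ID proteins lack a DNA-binding region and hold E proteins in inactive pairs. SMAD6 and SMAD7 are induced by the same signals and damp them, SMAD6 mainly in the BMP branch and SMAD7 also in the TGF-beta branch. In the thymus BMP4 is made by endothelial and mesenchymal cells, acts on epithelium and maintains Foxn1, the master factor of TECs. Id genes also respond to serum, growth factors and cell stress.

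Cells with between 2000 and 7500 detected genes and under 15% mitochondrial UMIs were kept, 3233 control cells (65.5% of barcodes) and 5070 irradiated cells (70.7% of barcodes). Median depth was 13412 UMIs in control and 13003.5 UMIs in irradiated cells, and 5 barcodes were shared by the kept cells of both libraries. Epcam, the sorted surface marker, was at 7.32 UMIs per 10000 in control against 8.17 in irradiated cells. Cells were divided by UMIs of marker genes into gates, each cell taking the first gate it passed. The limit was 5 summed UMIs for Psmb11/Prss16-high, tuft-like and Aire-high cells and 10 for keratinocyte-like, Gp2/Sox8-high and dividing cells. It was 20 for Ccl21a-high cells and 1 for Pdpn-positive and Aire-low cells, and Pdpn-positive cells also had to hold no Aire UMI. The gates, in order, were Psmb11/Prss16-high (genes of cortical TECs), tuft-like, keratinocyte-like, Gp2/Sox8-high, dividing, Aire-high, Ccl21a-high, Pdpn-positive, Aire-low and no gate. The Gp2/Sox8-high gate held 22 control and 21 irradiated cells and was not compared, which left 9 gates. Cells that passed more than 1 of the first 7 gates were 18.9% of control and 22.3% of irradiated cells, and doublets and cells in transition cannot be told apart among them. By gate these were 87.7% and 77.5% of dividing, 71.5% and 76.7% of keratinocyte-like, 47.9% and 53.6% of tuft-like, 39.2% and 45.2% of Psmb11/Prss16-high and 5.37% and 7.39% of Aire-high cells. Ccl21a was listed under 2 gene IDs, which were summed. Near-identical gene copies share its reads, so its level is uncertain.

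The sequence upstream of Id2 and Id4 is shown because BMP-activated SMADs are known to bind GC-rich elements, and the palindrome GGCGCC is the letter string searched here, on both strands. The sequences are from RefSeq on GRCm38.p6, cut to bases outside the exons of the genes in the GENCODE M21 annotation, 5′ to 3′ on the gene's strand, with the palindrome in capitals. The Id2 stretch, chr12:25096254-25096342 on the minus strand, lies inside the span of the longer annotated Id2 model and between its exons. The Id4 stretch, chr13:48260866-48261115 on the plus strand, ends at the base before the annotated RefSeq start.
Id2: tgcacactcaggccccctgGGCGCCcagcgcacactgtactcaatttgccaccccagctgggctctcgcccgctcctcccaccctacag
Id4: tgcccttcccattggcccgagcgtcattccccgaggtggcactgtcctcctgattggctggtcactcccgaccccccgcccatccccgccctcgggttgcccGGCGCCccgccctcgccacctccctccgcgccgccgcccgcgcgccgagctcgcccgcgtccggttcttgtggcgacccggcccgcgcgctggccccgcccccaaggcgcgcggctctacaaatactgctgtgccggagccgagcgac
Each held 1 palindrome, in 89 bases for Id2 and 250 bases for Id4. Of all 32851 RefSeq windows of 250 bases before a start, 9.6% held it, a share that does not apply to the shorter Id2 stretch. G and C made up 67.4% of the Id2 and 75.6% of the Id4 stretch, and the share over all windows takes no account of this. The 250 bases before the starts of Smad6 (chr9:64022060-64022309, minus strand) and Bmp4 (chr14:46390670-46390919, minus strand) did not hold this palindrome. GTCTG, the SMAD box, was on neither strand of any of these 4 stretches. Of all windows of 250 bases 42.2% held it, which again does not apply to the shorter Id2 stretch. No upstream stretch of Id1, Id3 or Smad7 is reported here. A match is a string of letters and not a shown binding site.

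Id1 (ENSMUSG00000042745, chr2:152736251-152737410, plus strand, GRCm38) inhibits E proteins and is the Id gene most used as a readout of BMP signalling. Over all kept cells control TECs held 1.41 Id1 UMIs per 10000 (1.38 to 1.44) and irradiated TECs 1.97 (1.94 to 2.0). The log2 ratio of irradiated over control was 0.48, with a range of 0.43 to 0.54 from the opposite ends of both intervals. It was the only one of the 7 genes that was higher in irradiated cells over all kept cells. Among the 15104 genes with at least 200 UMIs in both libraries together, 1.83% had a higher ratio than Id1, and the median log2 ratio of all these genes was -0.04. The fold of 1.5 used below to call a difference was passed upwards by 1.11% and downwards by 6.51% of these genes, and among the 7 genes by Bmp4 alone, downwards. The median of the 7 genes was -0.27.

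The level of Id1 differed more between cell types than between libraries. Ccl21a-high cells, the medullary TECs that make the chemokine CCL21, held the most, 4.03 UMIs per 10000 (3.91 to 4.15) in control against 5.48 (5.37 to 5.59) in the irradiated ones. Pdpn-positive cells, marked by podoplanin of junctional and immature TECs, came next with 2.60 (2.40 to 2.82) and 3.96 (3.62 to 4.32). Aire-high cells, which present tissue antigens under the regulator AIRE, held the least, 0.179 (0.156 to 0.204) and 0.336 (0.310 to 0.364). The highest gate stood 22.5-fold above the lowest in control and 16.3-fold in irradiated cells. In control cells the intervals of neighbouring gates overlapped for cells in no gate, Psmb11/Prss16-high and tuft-like cells and for Aire-low and dividing cells. In irradiated cells no neighbours in the order overlapped.

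**Figure D1:**
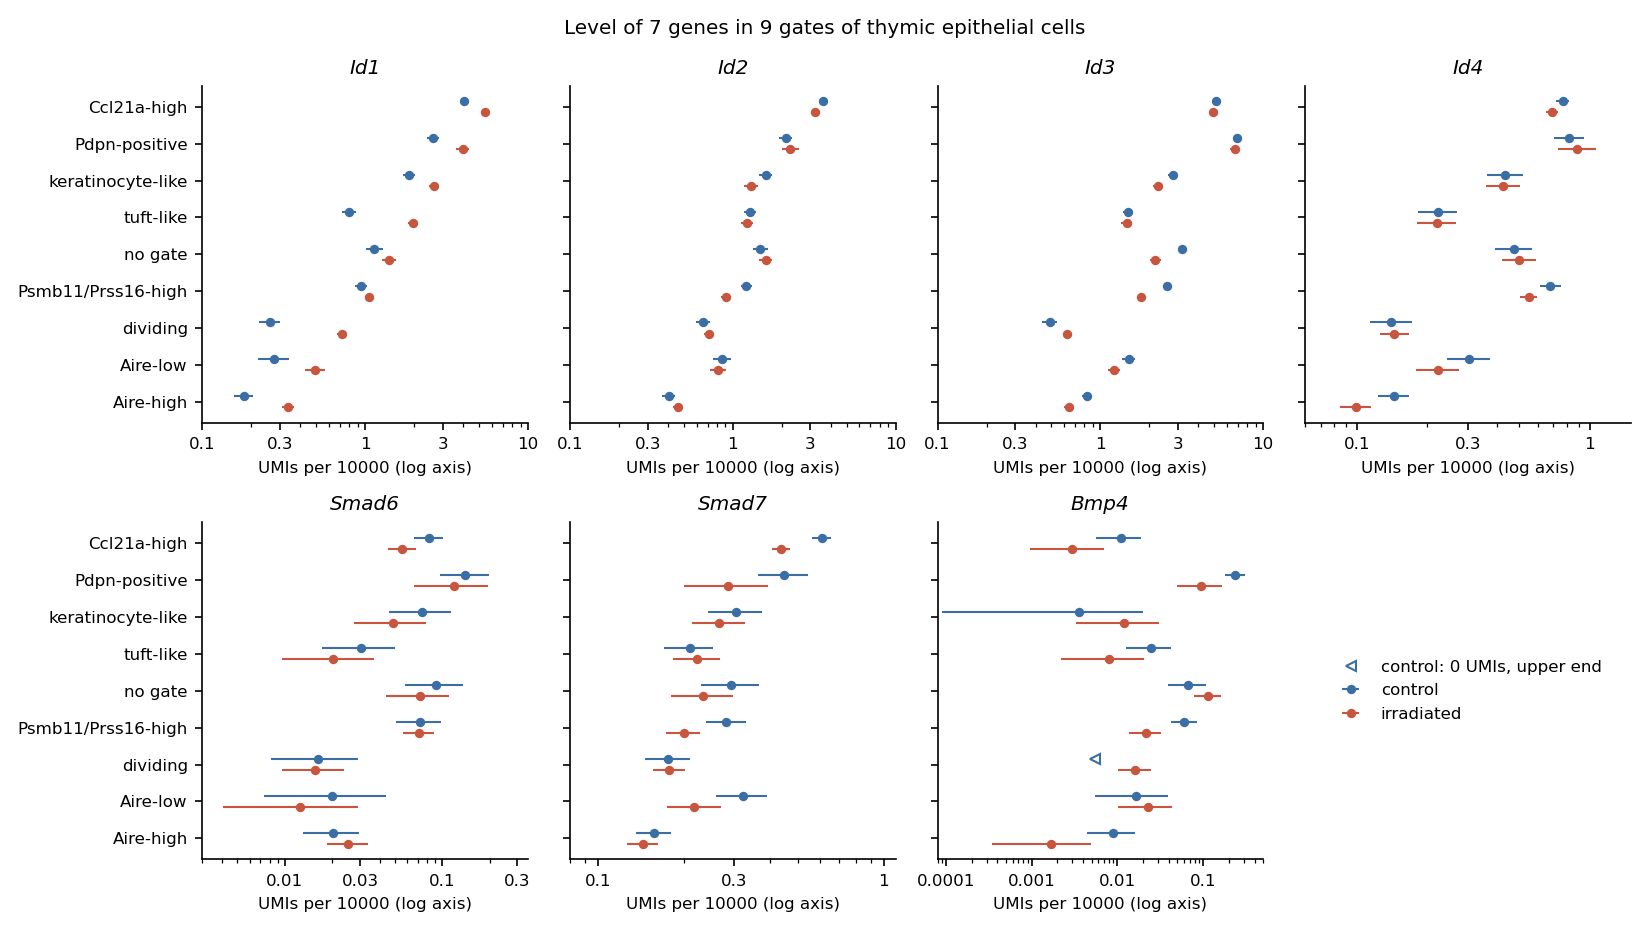
Summed UMIs per 10000 UMIs (x axes, log scale, each panel with its own range) of the 7 genes in 9 gates (y axis), control in blue and irradiated in red, with exact Poisson 95% intervals. Id1 lies to the right in the irradiated library in all 9 gates, from 0.179 to 0.336 in Aire-high cells and from 4.03 to 5.48 in Ccl21a-high cells, and the open triangle marks the upper end of the interval of Bmp4 in control dividing cells, which held 0 UMIs.

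The summed Id1 level was higher in the irradiated library in 9 of 9 gates, and in 7 of them the counting range of the ratio lay above 0. Dividing cells, marked by Mki67 and other mitotic genes, went from 0.259 (0.222 to 0.30) to 0.715 (0.671 to 0.762), and the log2 ratio was 1.46 (1.16 to 1.78). Tuft-like cells, which express taste-signalling genes such as Trpm5, went from 0.797 to 1.96, and the log2 ratio was 1.29 (1.06 to 1.53). Their intervals did not overlap between the libraries. Aire-high cells had a log2 ratio of 0.90 (0.60 to 1.22), Aire-low cells 0.85 (0.33 to 1.38) and Pdpn-positive cells 0.60 (0.36 to 0.85). These 5 gates were past 1.5-fold. Keratinocyte-like cells had a log2 ratio of 0.51 (0.29 to 0.73) and Ccl21a-high cells 0.44 (0.37 to 0.52). The ranges of Psmb11/Prss16-high cells, 0.17 (-0.04 to 0.38), and of cells in no gate, 0.30 (-0.02 to 0.61), reached below 0. Most of these values moved with the choice of cells and gates. With Tbata among the markers of the Psmb11/Prss16 gate, as the gate was first written, Aire-high cells had -0.16 (-0.70 to 0.39). This came from 84 control and 161 irradiated UMIs. Among cells that passed 1 gate at most, tuft-like cells had 0.10 (-0.84 to 1.02), from 44 control and 36 irradiated UMIs. Psmb11/Prss16-high cells had 0.02 (-0.28 to 0.32) in cells that passed 1 gate at most and 0.62 (0.50 to 0.74) with Tbata. In cells with few UMIs of stress genes they had 1.18 (0.76 to 1.62). Dividing cells had 0.86 with the gate limits halved and 2.32 (1.05 to 4.12) in cells that passed 1 gate at most, the latter from 6 control UMIs. Aire-low cells had 0.56 (-0.08 to 1.23) with the limits halved, and keratinocyte-like cells had 0.22 (-0.53 to 0.98) in cells with under 5 Ccl21a UMIs. In cells with few UMIs of stress genes the ratios of these gates were higher, up to 2.66 in tuft-like cells.

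Past the fold upwards were 1.33% of 8624 genes in dividing cells, 3.30% of 7120 in tuft-like cells, 1.69% of 10952 in Aire-high cells, 2.34% of 5374 in Aire-low cells and 1.54% of 3045 in Pdpn-positive cells, and in each of these gates Id1 was the only one past it of the members with 200 UMIs. These were 5 members in dividing, tuft-like and Aire-high cells, 4 in Pdpn-positive and 3 in Aire-low cells. The shares past the fold downwards were 1.45% in dividing, 4.54% in tuft-like, 3.74% in Aire-high, 3.59% in Aire-low and 3.68% in Pdpn-positive cells, with none of the 7 genes that had 200 UMIs among them. In the other gates none of the 7 genes with 200 UMIs was past the fold in either direction. The shares of all genes there were 0.978% upwards and 2.21% downwards of 8490 in Psmb11/Prss16-high cells, 2.50% and 5.12% of 4919 in keratinocyte-like cells, 0.632% and 2.20% of 9808 in Ccl21a-high cells, and 2.20% and 3.79% of 4538 in cells of no gate. Since Id1 chose the genes, nothing is read from its place among them.

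**Figure D2:**
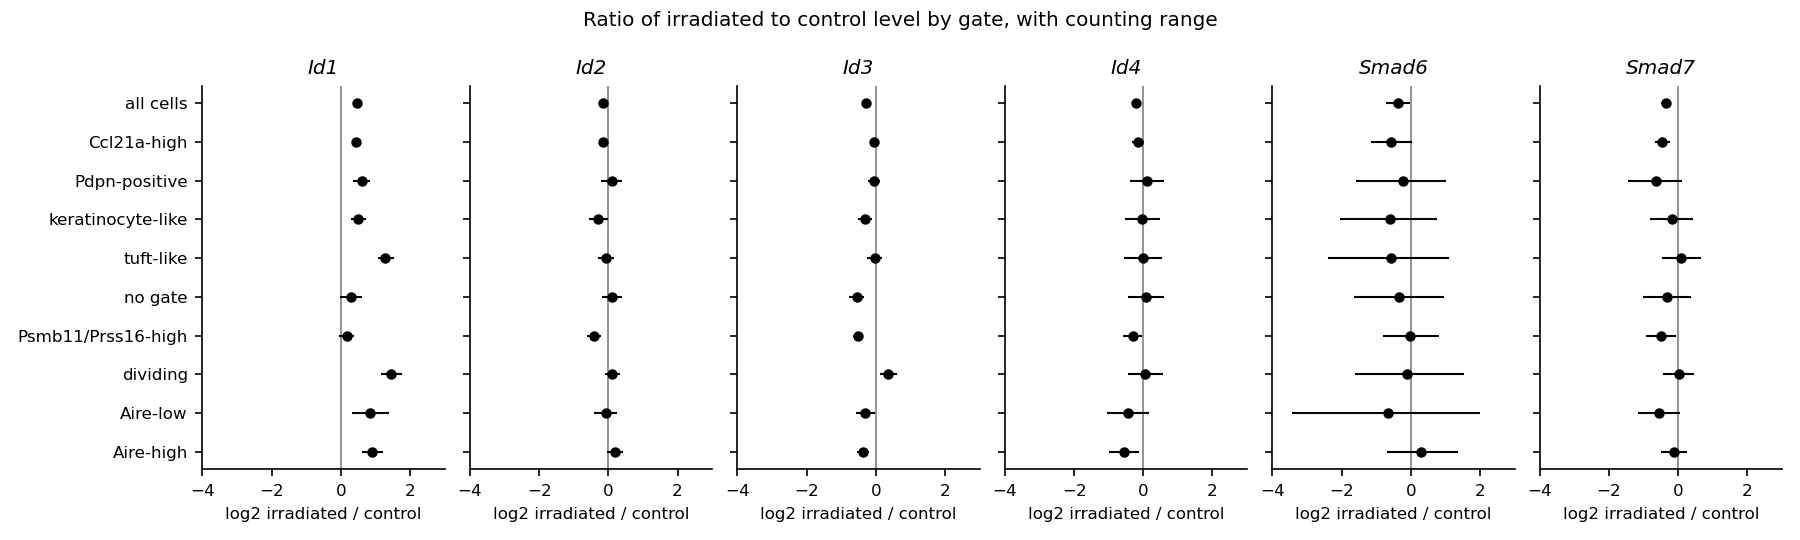
Log2 ratio of irradiated to control UMIs per 10000 (x axes) of 6 genes over all cells and in 9 gates (y axis), with bars for the range from opposite ends of both counting intervals. Id1 points lie right of 0 throughout, from 0.17 in Psmb11/Prss16-high to 1.46 in dividing cells, while Id3 lies left of 0 in 8 of 9 gates.

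In tuft-like, keratinocyte-like and dividing cells most Id1 RNA sat in cells that also held Ccl21a RNA. Among tuft-like cells, those with 20 or more Ccl21a UMIs were 59 of the 286 control and 92 of the 321 irradiated cells, and they held 79.8% and 94.1% of the Id1 UMIs of the gate. In these cells Id1 went from 2.76 to 5.50 UMIs per 10000. Tuft-like cells with fewer Ccl21a UMIs stood at 0.209 (0.165 to 0.260) against 0.175 (0.133 to 0.226) when irradiated, and the log2 ratio was -0.25 (-0.97 to 0.45). The Id1 difference of the tuft-like gate was therefore not detectable in its cells with little Ccl21a RNA.

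In dividing cells Id1 was higher on both sides of that limit. With 20 or more Ccl21a UMIs they went from 1.08 (0.872 to 1.32) to 2.97 (2.76 to 3.19). Such cells were 38 of 235 control and 123 of 570 irradiated dividing cells, and they held 54.3% and 76.6% of the Id1 UMIs of the gate. Dividing cells below that limit went from 0.136 (0.108 to 0.169) to 0.205 (0.180 to 0.234), and the log2 ratio was 0.59 (0.08 to 1.12). Aire-high cells showed similar ratios on both sides of the limit, 0.60 (0.16 to 1.06) with 20 or more Ccl21a UMIs and 0.68 (0.25 to 1.12) with fewer. Those with 20 or more held 44.6% of the control and 54.2% of the irradiated Id1 UMIs of the gate. Keratinocyte-like cells had 0.33 (0.10 to 0.57) and 0.47 (-0.24 to 1.2), and their cells rich in Ccl21a RNA held 89.5% and 90.7% of the Id1 UMIs. In Psmb11/Prss16-high cells the sign differed, with -0.16 (-0.50 to 0.18) in cells rich in Ccl21a RNA and 0.34 (0.07 to 0.61) in the others. Whether Ccl21a RNA in these cells came from the cells themselves, from doublets or from free RNA was not tested.

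The summed Ccl21a level itself was also higher in several gates. It went from 2.49 to 4.91 UMIs per 10000 in Aire-high cells, from 5.27 to 8.22 in dividing cells and from 18.5 to 27.7 in tuft-like cells. In Pdpn-positive cells, which hold under 20 Ccl21a UMIs by their place in the order, it went from 0.864 to 1.80. In keratinocyte-like cells it was lower, 37.9 and 33.4. Krt5, a keratin of medullary and basal epithelium, was higher in 9 of 9 gates, from 1.0 to 2.20 in Aire-high cells and from 4.35 to 6.68 in dividing cells. In Ccl21a-high cells, which were themselves selected by Ccl21a UMIs, the Ccl21a level was 110 in control and 108 in irradiated cells. The part of Ccl21a and Krt5 RNA in the Id1 differences was not tested beyond the division by Ccl21a UMIs.

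**Figure D3:**
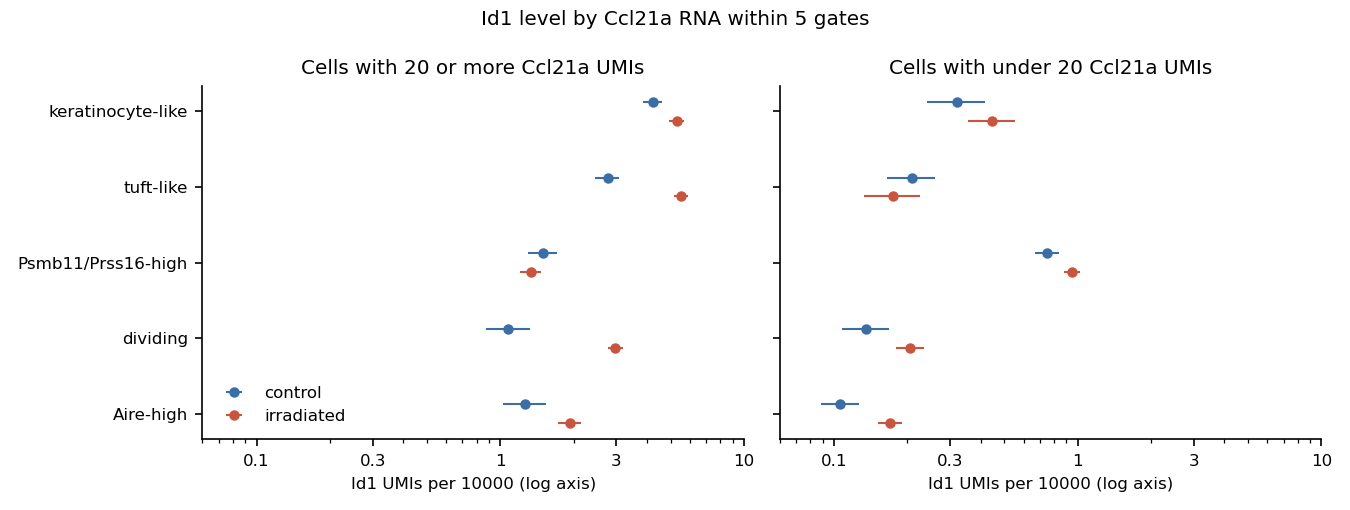
Id1 UMIs per 10000 (x axes, log scale) in cells of 5 gates (y axis) with 20 or more Ccl21a UMIs (left) and with fewer (right), control in blue and irradiated in red, with exact Poisson 95% intervals. Cells rich in Ccl21a RNA lie further right in every gate, and tuft-like cells with little Ccl21a RNA show overlapping intervals, 0.209 in control and 0.175 in irradiated cells.

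Id1 was also compared with the other Id genes directly, as its share of the summed UMIs of Id1 to Id4, which does not depend on the total UMIs of a cell. Over all cells this share was 24.2% (exact Clopper-Pearson 95% interval 23.7 to 24.7) in control against 34.2% (33.8 to 34.7) in the irradiated ones. It was higher in the irradiated library in each of the 9 gates, and the intervals did not overlap in any of them. These intervals treat UMIs as independent and leave out spread between cells and libraries. Since Id1 chose the genes, its higher share describes that choice and is no further support. In Ccl21a-high cells it was 29.9% and 38.4%, in tuft-like cells 21.1% and 40.3%, in dividing cells 16.8% and 32.5%, and in Psmb11/Prss16-high cells 17.5% (16.1 to 18.9) and 24.7% (23.5 to 26.0). The share takes in the lower Id2, Id3 and Id4 levels of the irradiated library as well as the Id1 level, and in Psmb11/Prss16-high cells Id1 differed least, from 0.944 to 1.06 UMIs per 10000.

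Shares of cells with an Id1 UMI were compared on 4000 UMIs drawn at random from each cell (thinning), since depth differs between gates. In Ccl21a-high cells the share was 60.0% (56.8 to 63.1) in control against 67.3% (64.9 to 69.6) in the irradiated ones. The unthinned shares were 78.0% and 81.0%, and the median cell of the gate held 10254 and 9758 UMIs. In all other compared gates the thinned intervals of the libraries overlapped. In Psmb11/Prss16-high cells the share was lower when irradiated, 25.3% and 21.1%, or 47.6% and 34.4% unthinned. In cells of no gate it was 27.0% and 26.0%. No cell type sure to lack Id1 was at hand to give the background of free RNA. The lowest share of any gate, in Aire-high cells of median depth 19181 and 16348 UMIs, was 4.27% (2.83 to 6.15) and 6.92% (5.46 to 8.62), or 12.5% and 13.4% without thinning. Over all cells the thinned shares were 30.2% (28.6 to 31.8) and 33.1% (31.9 to 34.5), and the unthinned shares were 43.8% and 44.0%. The median Ccl21a-high cell held 3 Id1 UMIs in each library, and the 1% of cells with the most held 7.47% and 7.07% of the gate's Id1 UMIs. In Aire-high cells that top 1% held 36.9% and 38.3%, and in Aire-low cells 31.7% and 39.1%, so few cells carried the Id1 level of both gates.

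Id2 (chr12:25093799-25097140, minus strand), which in other lineages restrains E proteins during lymphoid development, was slightly lower in irradiated cells as a whole. It went from 1.51 (1.48 to 1.54) to 1.36 (1.34 to 1.39) UMIs per 10000, and the log2 ratio was -0.14 (-0.20 to -0.08). Ccl21a-high cells held the most, 3.56 and 3.19, and Aire-high cells the least, 0.404 and 0.461. The gates divided into 4 with a higher and 5 with a lower value in irradiated cells. The range lay below 0 in 3 gates, Psmb11/Prss16-high at -0.42 (-0.62 to -0.22), keratinocyte-like at -0.29 (-0.57 to -0.02) and Ccl21a-high at -0.16 (-0.24 to -0.08). It lay above 0 in none of the 9 gates. In cells with few UMIs of stress genes none of these 3 gates was lower. Psmb11/Prss16-high cells had 0.29 (-0.08 to 0.68) there and keratinocyte-like cells 0.30 (-0.15 to 0.77). Such Ccl21a-high cells held 2.45 (2.26 to 2.66) Id2 UMIs per 10000 in control and 2.57 (2.46 to 2.68) in irradiated cells. The thinned share of Ccl21a-high cells with an Id2 UMI was 61.1% in control and 56.3% in irradiated cells, against 82.6% and 75.0% unthinned.

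Id3 (chr4:136143497-136145755, plus strand), an Id gene known for its place in lymphocyte selection, went the other way from Id1 in most gates. Over all cells it was at 2.49 (2.45 to 2.53) UMIs per 10000 against 2.06 (2.03 to 2.10) when irradiated, and the log2 ratio was -0.27 (-0.32 to -0.22). Pdpn-positive cells held the most in both libraries, 6.96 and 6.71, followed by Ccl21a-high cells with 5.13 and 4.91. Dividing cells held the least, 0.490 and 0.629. In irradiated cells the interval of Aire-high cells, 0.638 (0.601 to 0.676), overlapped that of dividing cells.

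Id3 was lower in irradiated cells in 8 of 9 gates, with the range below 0 in 5. Cells of no gate went from 3.20 (2.99 to 3.43) to 2.18 (2.01 to 2.36), and the log2 ratio was -0.55 (-0.77 to -0.34). Psmb11/Prss16-high cells went from 2.56 to 1.78, and the log2 ratio was -0.52 (-0.66 to -0.38). Aire-high cells had -0.37 (-0.55 to -0.20), and the ratios of keratinocyte-like and Aire-low cells were -0.31 and -0.30. In Ccl21a-high cells Id3 differed little, with a log2 ratio of -0.06 (-0.13 to 0.01), while Id1 was higher there. Dividing cells were the exception, at 0.36 (0.11 to 0.62), but their sign turned, to -0.73 (-1.37 to -0.06), in cells that passed 1 gate at most. Other gates turned as well. Keratinocyte-like cells had 0.18 (0.03 to 0.34) with the gate limits halved. In low-stress cells Id3 had 0.94 (0.53 to 1.36) in keratinocyte-like, 0.29 (0.03 to 0.56) in Psmb11/Prss16-high and 0.95 (0.45 to 1.49) in no gate cells. Of the 5 gates with a range below 0, Aire-high and Aire-low cells stayed lower in all 15 values computed for each.

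Id4 (chr13:48261228-48266026, plus strand), which acts on the other ID proteins as well as on E proteins, differed in few gates. It stood at 0.412 (0.395 to 0.430) and 0.360 (0.347 to 0.374) UMIs per 10000, and the log2 ratio was -0.20 (-0.31 to -0.08). The range lay below 0 in Aire-high cells, from 0.145 to 0.0989 with a log2 ratio of -0.55 (-0.98 to -0.11), and in Psmb11/Prss16-high cells, from 0.679 to 0.547 with -0.31 (-0.58 to -0.04). In the other 7 gates it included 0. Id4 was highest in Pdpn-positive cells, 0.820 and 0.887, where the interval overlapped that of the next gate.

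The SMAD feedback genes were lower in the irradiated library over all kept cells. Smad7, which blocks type I receptors and recruits ubiquitin ligases to them, went from 0.313 (0.298 to 0.328) to 0.244 (0.233 to 0.255), and the log2 ratio was -0.36 (-0.50 to -0.22). Over cells with few UMIs of stress genes the log2 ratio was -0.07 (-0.29 to 0.16). Among all kept cells Smad7 was lower in 7 of 9 gates. Ccl21a-high cells held the most, with a range below 0, from 0.607 (0.562 to 0.654) to 0.438 (0.407 to 0.471), and the log2 ratio was -0.47 (-0.68 to -0.25). Psmb11/Prss16-high cells had -0.50 (-0.92 to -0.06), from 0.281 to 0.20. In dividing and tuft-like cells the log2 ratios were 0.01 (-0.43 to 0.47) and 0.09 (-0.47 to 0.65). After thinning, 21.2% (18.6 to 23.9) of control and 16.1% (14.3 to 18) of irradiated Ccl21a-high cells held a Smad7 UMI, and without thinning 41.4% and 32.6%. In Ccl21a-high cells Id1 was higher and Smad7 lower in the same library.

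Smad6 (chr9:63953076-64022059, minus strand), the inhibitor of the BMP branch, was sparse. Its 266 control and 302 irradiated UMIs came to 0.0516 (0.0456 to 0.0581) and 0.0400 (0.0356 to 0.0448) per 10000, and the log2 ratio was -0.37 (-0.71 to -0.03). It was lower in 8 of 9 gates, none of which reached 200 UMIs, and every range by gate included 0. Differences of Smad6 by gate were not detectable at this depth. Over all gates the range also included 0 under some alternatives. The log2 ratio was -0.15 (-0.69 to 0.40) in cells with few UMIs of stress genes. With a limit of 10% mitochondrial UMIs it was -0.25 (-0.61 to 0.12), and after thinning -0.47 (-1.08 to 0.13). A thinned share of 2.57% of control and 1.86% of irradiated cells held a UMI, against 7.36% and 5.44% unthinned.

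Bmp4 (chr14:46383520-46390669, minus strand) was nearly absent from sorted TECs. The 146 control UMIs lay in 88 cells and the 114 irradiated UMIs in 67 cells, or 0.0283 (0.0239 to 0.0333) and 0.0151 (0.0124 to 0.0181) per 10000. The log2 ratio was -0.91 (-1.42 to -0.40). Pdpn-positive cells held the most in control, with 54 UMIs in 36 of 214 control cells and 12 UMIs in 9 of 123 irradiated cells, from 0.237 (0.178 to 0.309) to 0.0951 (0.0491 to 0.166). Psmb11/Prss16-high cells went from 33 to 23 UMIs, or from 0.0607 to 0.0216 per 10000. Cells in no gate held the most in the irradiated library, with 17 control and 32 irradiated UMIs, or 0.0671 (0.0391 to 0.107) and 0.115 (0.0787 to 0.162) per 10000, and this interval overlapped that of irradiated Pdpn-positive cells. None of the 9 gates reached 200 Bmp4 UMIs.

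A few cells decided the Bmp4 level elsewhere. Control dividing cells held 0 Bmp4 UMIs, and irradiated dividing cells held 22 in 4 cells, of which 19 were in the 2 richest. Against 3 UMIs over the control gate, or 0.00444 per 10000, the measured irradiated level is at least 3.66-fold higher. With the counting interval of the irradiated UMIs as well, the range of the log2 ratio began at 0.90. In Aire-high cells all 11 control UMIs came from 1 cell. Pdpn-positive cells were 6.62% of control and 2.43% of irradiated cells, and their Bmp4 level was lower as well. With the same weight for each gate the mean log2 ratio was -0.14, which includes the dividing gate with its 0 control UMIs. Summed markers of fibroblasts, which are known to make Bmp4, went from 3.09 to 1.76 UMIs per 10000 over all cells and from 21.8 to 11.8 in Pdpn-positive cells, their highest gate, although the EPCAM+ sort should remove fibroblasts. Most of the sum was Dcn, at 2.71 and 1.44, with 3 of 5 tested markers past the fold downwards (Col1a2, Dcn and Lum) and Pdgfrb and Col3a1 at -0.12 and 0.06. Summed endothelial markers went from 0.413 to 0.279, with 2 of 5 tested markers past it downwards (Tek and Egfl7), and none of the 8 fibroblast and 8 endothelial markers was at 0 in either library. Their part in the Bmp4 difference was not tested.

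Stress genes differed in the opposite direction from Id1. All 16 immediate-early and heat-shock genes on the list, which tissue digestion is known to induce, were lower in irradiated cells, 15 of them past 1.5-fold, with a median log2 ratio of -1.0 against -0.04 for all genes. Atf3 stood at -1.85, Fosb at -1.52, Fos at -1.43 and Nr4a1 at -1.40. Their summed level was 87.9 UMIs per 10000 in control against 45.8 in irradiated cells. Handling and irradiation cannot be told apart in 2 libraries.

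Cells with a share of these UMIs at or under the median of both libraries, 0.382%, were taken as low-stress cells. In control Pdpn-positive cells Id3 was at 2.77 (2.34 to 3.25) in low-stress and 8.26 (7.84 to 8.70) in the other cells, and in irradiated ones at 5.17 (4.62 to 5.76) and 8.27 (7.57 to 9.01). In control Ccl21a-high cells Id1 was at 3.48 (3.25 to 3.72) in 214 low-stress cells and 4.18 (4.05 to 4.32) in the other 755. In irradiated Ccl21a-high cells it was at 5.38 (5.22 to 5.55) and 5.57 (5.41 to 5.73), above the control on both sides. In Pdpn-positive cells Id1 was at 1.78 (1.44 to 2.18) and 2.86 (2.61 to 3.12) in control and 3.99 (3.51 to 4.51) and 3.94 (3.46 to 4.46) in irradiated cells. Over low-stress cells of all gates the log2 ratio was 1.26 for Id1, 0.40 for Id2 and 0.44 for Id3, so the signs of Id2 and Id3 turned. This selection also changes the mix of gates, and the part of stress in the Id differences was not tested.

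**Figure D4:**
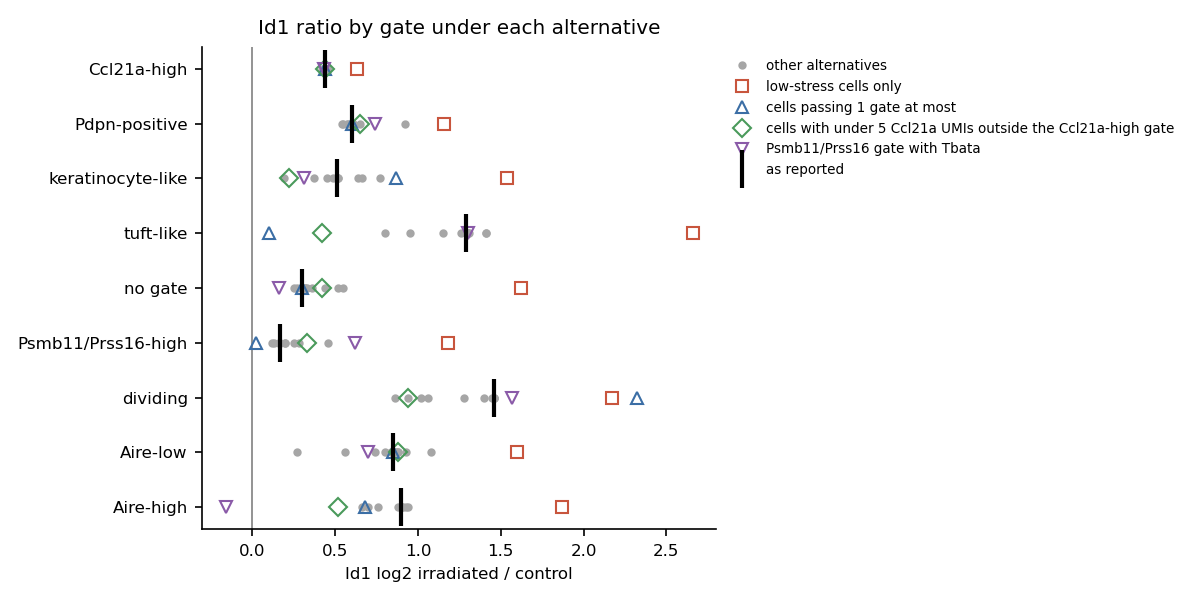
Log2 ratio of irradiated to control Id1 (x axis) in 9 gates (y axis) as reported (black bars) and under each alternative way of processing (symbols). Ccl21a-high cells stay between 0.42 and 0.63, and tuft-like cells spread from 0.10 in cells that passed 1 gate at most to 2.66 in low-stress cells. Aire-high cells turn to -0.16 with Tbata among the markers of the Psmb11/Prss16 gate, as it was first written.

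Thymocyte RNA was unequal between the libraries too. Cells with 5 or more UMIs of thymocyte markers were 93 (2.88%) of the control and 184 (3.63%) of the irradiated cells. The 9 tested markers were all higher in irradiated cells, 3 of them past the fold. Within Psmb11/Prss16-high cells those with thymocyte RNA held less Id1, 0.190 (0.116 to 0.293) against 1.13 (1.03 to 1.23) without it in control and 0.0801 (0.0489 to 0.124) against 1.36 (1.29 to 1.45) in irradiated cells. Id3 showed the same order, 1.15 against 2.90 in control and 0.769 against 2.09 in irradiated cells. In control these were 121 Id3 UMIs in 30 cells with thymocyte RNA and 1269 in 243 cells without it. Thymocyte RNA adds to the total UMIs of a cell and so lowers levels per 10000, and its part in these differences was not tested. Cells with such RNA made up 11% of control and 15.5% of irradiated Psmb11/Prss16-high cells. Without all such cells the Id1 log2 ratio over all cells was 0.49.

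The other genes of the pathway were taken from lists, and counts are of genes with at least 200 UMIs, to be read against the 1.11% of all genes past the fold upwards and 6.51% downwards. The list called BMP ligands held Bmp and Gdf genes, not all of which are BMP ligands. Of its 8 tested genes 1 was past the fold downwards, Bmp4 itself. Their median log2 ratio was -0.36, with 2 above 0 and 6 below. Bmp2 was at -0.52 (-0.65 to -0.39), Gdf11 at -0.48 and Bmp3 at -0.40. Of 7 TGF-beta and activin ligand genes 1 was past it downwards, Mstn, the muscle-restraining myostatin, from 0.0737 to 0.0234 UMIs per 10000 with a log2 ratio of -1.65 (-2.02 to -1.29). Nodal was at -0.55 (-1.12 to 0.02), Tgfb2 at -0.37 and Tgfb1 at -0.27.

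Over all cells, receptors and SMAD signal carriers had none past the fold. The ratios of 11 receptor genes lay between -0.49 and 0.15, with Acvr2b, Acvr2a, Tgfbr2 and Acvr1b at -0.49, -0.30, -0.20 and -0.18. The 6 signal carriers lay between -0.08 and 0.02, with Smad4 at -0.08, Smad5 at -0.05 and Smad9 and Smad3 at -0.04 each. Their summed level was lower in Aire-low cells, 5.34 and 3.78 UMIs per 10000 with the log2 ratio at -0.50 (-0.64 to -0.35). Among 14 antagonists and decoys 1 was past the fold in each direction. Fstl3, which binds activins, had -1.25 (-1.70 to -0.80), and Sost, known as a WNT and BMP antagonist of bone, had 0.76 (0.27 to 1.27). Nbl1 and Chrdl1 were at -0.49 each. Of 11 repressors and ubiquitin ligases none was past it, with Nedd4l at -0.44, Tob1 at -0.40, Wwp1 at 0.19 and Pmepa1 at -0.16.

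Other targets of BMP differed in both directions. Of 9 tested genes 1 was past the fold, Dlx5, a homeobox gene, at -0.65 (-0.93 to -0.37), and the median was -0.06. Dlx3 was at -0.43 and Gata3 at -0.37. Hey1, a target of BMP and Notch, was at 0.40 (0.28 to 0.53) and higher in 9 of 9 gates. Its range included 0 in Psmb11/Prss16-high, keratinocyte-like, Aire-high and no gate cells. Psmb11/Prss16-high cells held the most Hey1, 1.19 and 1.21 UMIs per 10000, with a log2 ratio of 0.02 (-0.17 to 0.21). Of 9 TGF-beta targets, with a median of -0.24, 2 were past the fold downwards, Ccn1 at -1.07 and Ccn2 at -1.0, both also known to be induced early by serum. Cdkn2b, a cell cycle inhibitor, was at -0.48 and Fn1, which encodes fibronectin, at 0.34. The E protein genes Tcf3, Tcf12 and Tcf4, the partners of ID proteins, were at 0.09, 0.04 and -0.01. Of 8 p53 targets, known to respond to irradiation, none was past the fold over all cells and the median was 0.18. Their summed level was higher in irradiated cells in each gate, with log2 ratios from 0.14 in tuft-like to 0.57 in Aire-high cells. By gate Cdkn1a differed more widely, at 1.20 (1.09 to 1.31) in Aire-high and -0.05 (-0.20 to 0.09) in tuft-like cells. Over all cells Cdkn1a was at 0.46 (0.41 to 0.51), Bax at 0.42, Ccng1 at 0.41 and Phlda3 at 0.19.

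**Figure D5:**
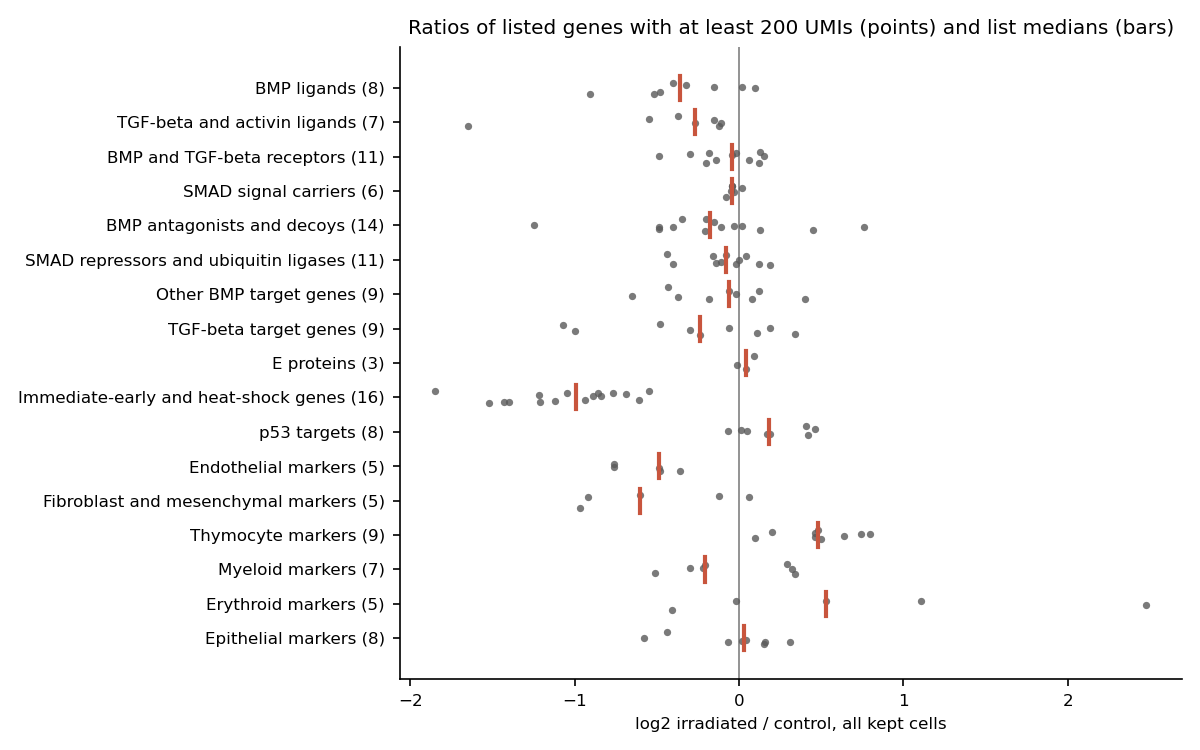
Log2 ratio of irradiated to control level over all kept cells (x axis) of the genes with at least 200 UMIs on 17 lists (y axis, number of genes in brackets), with points for genes and red bars for list medians. The 16 immediate-early and heat-shock genes all lie left of 0 around a median of -1.0, while the 6 SMAD signal carriers lie between -0.08 and 0.02.

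The remaining lists marked cell types. The median log2 ratio was 0.03 over 8 epithelial markers, -0.21 over 7 myeloid markers and 0.53 over 5 erythroid markers, of which Hbb-bt at 2.48 and Hba-a2 at 1.11 were past the fold. Myeloid and epithelial lists had none past it over all cells. By gate, summed myeloid markers went from 0.915 to 0.224 UMIs per 10000 in Ccl21a-high cells, with the log2 ratio at -2.03 (-2.27 to -1.79), and from 0.145 to 1.23 in Pdpn-positive cells, with the log2 ratio at 3.07 (2.36 to 3.85). Over all cells most of the sum was Lyz2, at 3.33 of 4.31 in control and 2.69 of 3.78 in irradiated cells. Aire-high cells held the highest sum, 9.20 and 8.46. Id1 was higher in both Ccl21a-high and Pdpn-positive cells, and the part of these markers in it was not tested. No myeloid or erythroid marker was at 0 over all cells in either library.

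Across the 9 gates the members of the Id family had similar orders of levels, and Smad7 shared them. Pearson's r of log2(UMIs per 10000 + 0.1) between Id1 and Id2 was 0.96 in control and 0.94 in irradiated cells. Between Id1 and Id3 it was 0.91 and 0.89, and between Id1 and Id4 0.86 and 0.81. With Id1, Smad7 had 0.84 and 0.89, Smad6 0.87 and 0.62, and Bmp4 0.43 and 0.21. The gates of a library share its depth and free RNA, so these values describe the gates only. Among 12761 genes, those most like Id1 over the gates, by the lower r of both libraries, were Tagln (0.98), Ifi27l2a (0.97), Ifitm2 (0.97), C1ra (0.96) and Slc27a3 (0.96). Over all cells their log2 ratios were 0.25 for Ifitm2, 0.21 for Ifi27l2a, 0.03 for Slc27a3, -0.01 for C1ra and -0.04 for Tagln. The genes most like Id2 were Phf11d, Tagln, Plscr3, Cnpy2 and Stat2, each at 0.95. Most like Id3 were Mir99ahg (0.99), Itprid2, Cpq, Cdh3 and Bcar1 (0.97 each).

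In every gate of both libraries, an Id1 UMI was found more often in cells with an Id3 UMI than in those without. Among thinned Ccl21a-high cells an Id1 UMI was found in 68.5% of control cells with an Id3 UMI and 45.2% of those without, and in 77.6% and 50.4% of irradiated ones. In Aire-high cells the shares were 11.8% and 2.21% in control and 16.0% and 4.96% in irradiated cells. In both gates Id1 was found more often in irradiated cells, with and without Id3. In Psmb11/Prss16-high cells without Id3 it was found less often, in 12.6% of control and 10.7% of irradiated cells. With Id2 in place of Id3, the shares in control Pdpn-positive cells were nearly equal, 47.7% with it and 47.6% without. No intervals were computed for these shares.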

How the data were processed

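TECs were measured in 2 droplet libraries. The authors aligned reads to the mouse genome and counted UMIs with Cell Ranger, version 5.1 in the submitters' processing notes and 5.0.1 in the file headers, and deposited raw counts per gene and barcode. The labels name version v2 of the chemistry and the study v3.

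From these counts, cells were kept by detected genes (those found in at least 5 barcodes) and mitochondrial share, gated by marker UMIs and summed per gate. Gates needed 50 cells in each library. Log2 ratios used 0.5 added UMIs. Thinning to 4000 UMIs left out 0 control and 5 irradiated cells. Tbata was dropped from the Psmb11/Prss16 gate after its spread was seen (5 or more UMIs in 32.0% of control and 32.2% of irradiated cells). No doublet caller was run, and no doublets were removed beyond the limit on detected genes. The members, gates and lists were chosen with earlier results of these data known. Named genes were the members, the genes of each list with the largest ratios (up to 4, at least 200 UMIs) and the 5 most like Id1, Id2 and Id3. The other genes of a list are given by its counts and median, and 1 gene was taken off a list and is not reported here. Bmp4 had too few UMIs for such a search. The computation of ratios was checked on simulated Poisson counts of 15102 genes. All changes put in were larger than 1.5-fold, and 191 of 191 changed genes passed the fold in the right direction. The simulated counts held no spread between cells or libraries, so this does not measure how reliable a difference in the data is. Python 3.11.15, NumPy 2.4.6, SciPy 1.17.1, pandas 2.3.3 and matplotlib 3.10.9 were used.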

Additional observations from a re-analysis of the deposited data

Results flagged for a closer look

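Id3 in dividing cells stood apart because its log2 ratio, 0.36, had a range above 0 while the range lay below 0 in Psmb11/Prss16-high (-0.52), keratinocyte-like (-0.31), Aire-high (-0.37), Aire-low (-0.30) and no gate cells (-0.55). Bmp4 in dividing cells stood apart in the same way, with a fitted log2 ratio of 4.49 that depends on the added UMIs, against -1.48 in Psmb11/Prss16-high and -1.27 in Pdpn-positive cells. Neither difference between gates was tested, since each condition was 1 library.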

How the results depend on the processing

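Id1 chose the genes in these same data, so its sign under other processing is no further support. Over all cells, Id1 stayed higher in irradiated cells under all 11 alternatives (0.41 to 1.26). It moved to 0.42 with a mean over cells, 0.41 after thinning, 1.26 in low-stress cells and 0.73 with the same weight for each gate. In low-stress cells Id2 moved to 0.40, Id3 to 0.44, Id4 to 0.09 and Smad7 to -0.07. With the same weight for each gate Id2 moved to -0.06, Id3 to -0.20 and Bmp4 to -0.14, and thinning moved Bmp4 to -1.47. Of 168 genes past the fold upwards, the count became 436 with a minimum of 50 UMIs and 55 with 1000, and of 983 downwards it became 2026 and 286, and 365 after thinning, where fewer genes reached the minimum. By gate, Id1 kept its sign in 134 of 135 values, but the ranges of some reached below 0. Among these were tuft-like cells that passed 1 gate at most, at 0.10 (-0.84 to 1.02). The exception was Aire-high cells at -0.16 with Tbata among the markers of the Psmb11/Prss16 gate. The gate as first written held Tbata, and dropping it was a choice made after seeing the data. The limit of 5 Ccl21a UMIs outside the Ccl21a-high gate was also chosen after seeing the data. Under it Id1 stood at 0.42 (-0.40 to 1.25) in tuft-like, 0.94 in dividing and 0.52 in Aire-high cells. Id2 kept its sign in 116 and Id3 in 120 of 135 values. The causes were not tested. No paired analysis was possible because each condition had 1 library. Depth limits Smad6 and Bmp4 by gate.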

Other observations

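The barcodes that failed the limits on detected genes and mitochondrial share, 1704 in the control and 2097 in the irradiated library, went another way. In them Id1 was at 1.15 (1.07 to 1.24) UMIs per 10000 in control and 0.978 (0.904 to 1.06) in irradiated barcodes, a log2 ratio of -0.24 (-0.45 to -0.02). All 7 genes were lower in the irradiated ones, Id2 at -0.58, Id3 at -0.43, Id4 at -0.53, Smad7 at -0.76, Smad6 at -1.25 and Bmp4 at -2.17. Which cells these barcodes hold was not tested.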
